A study of Rattus norvegicus with 18 samples.

Results

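The contractile genes of smooth muscle and of myofibroblasts were followed in Rat1 fibroblasts with and without MYC. They were a list of 10 symbols (Acta2, Actg2, Tagln, Cnn1, Cnn2, Myl9, Cald1, Tpm1, Tpm2 and Srf), of which 9 are among the 13188 genes of the deposited expression table. The expression of Cnn2 was not analysed here. The list was drawn up from the known roles of the genes, but it was also selected on measured values, since results of these data were in view, among them the fall of Tagln with MYC among the 12 libraries described below as the set of 12. For the list, values and counts of that contrast are therefore descriptions, given without p-values or intervals. The standard errors (SE) beside them describe the spread between libraries only. The counts still apply a cutoff on the adjusted p, and they are no test of the list. Which other values had a part in the choice is not stated in the sources. The p-values and intervals of the list in the other contrasts may therefore also be affected by that choice. RNA-seq was measured in 18 libraries in 6 groups of 3, all made from HO15.19 cells, a single line of Rat1 rat fibroblasts that lacks functional endogenous myc (myc-/-). The groups were myc-/- cells, myc-/- cells in which human MYC had been introduced with a virus (myc-/- + MYC), myc-/- cells transfected with a control siRNA (myc-/- siCtrl), and myc-/- + MYC cells transfected with the control siRNA (siCtrl) or with 1 of the siRNAs siAHR-2 and siAHR-5, which target the aryl hydrocarbon receptor (AHR, gene Ahr). Per the labels, siRNA was used at 40 nM and cells were harvested after 48 h, and all cells grew in 10% serum. The paper's culture methods give a lower share of serum for Rat1 fibroblasts than the labels do. All cells, the controls included, therefore lack functional endogenous myc, and MYC is expressed from an exogenous promoter. Nothing in the sources says that the 3 libraries of a group came from separately derived lines, and p-values measure only the spread between these libraries.

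Contractile cells pull by sliding myosin along actin filaments. In smooth muscle and in fibroblasts that have become myofibroblasts, the filaments hold the smooth muscle actins encoded by Acta2 (α) and Actg2 (γ), tropomyosins lie along them, and calponin, transgelin and caldesmon bind them and temper the pull. Myosin is switched on when its regulatory light chain (Myl9 among others) is phosphorylated by myosin light chain kinase. Many of these genes are transcribed by serum response factor (SRF), which binds a DNA element called the CArG box together with cofactors that sense free actin or, in muscle, with myocardin.

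Because SRF acts through CArG boxes, the RefSeq promoter windows of the list (assembly GRCr8, 250 bases before each start) were searched for them. Windows were found for 8 of the 10 symbols. Those for Tagln and Myl9 are not among them. Of the genes in the expression table, the window of Srf itself held exact CArG boxes, and that of Acta2 held elements in which 1 of the A or T bases of the core is C or G. Both are printed for those elements, in capitals, and the window of Actg2, the other smooth muscle actin, is printed as one in which no such run was found. All are written 5′ to 3′ on the strand of the gene.
Acta2 (chr1:241172504-241172753, minus strand): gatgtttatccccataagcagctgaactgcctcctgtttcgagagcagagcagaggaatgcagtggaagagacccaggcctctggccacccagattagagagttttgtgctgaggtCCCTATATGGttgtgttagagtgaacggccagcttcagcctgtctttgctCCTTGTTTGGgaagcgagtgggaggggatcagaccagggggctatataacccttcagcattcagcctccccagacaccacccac
Srf (chr9:21923826-21924075, plus strand): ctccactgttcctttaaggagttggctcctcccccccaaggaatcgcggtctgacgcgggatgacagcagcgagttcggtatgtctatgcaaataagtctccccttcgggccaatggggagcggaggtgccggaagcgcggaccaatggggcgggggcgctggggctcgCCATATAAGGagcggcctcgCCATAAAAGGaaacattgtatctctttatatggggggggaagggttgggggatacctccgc
Actg2 (chr4:117594040-117594289, minus strand): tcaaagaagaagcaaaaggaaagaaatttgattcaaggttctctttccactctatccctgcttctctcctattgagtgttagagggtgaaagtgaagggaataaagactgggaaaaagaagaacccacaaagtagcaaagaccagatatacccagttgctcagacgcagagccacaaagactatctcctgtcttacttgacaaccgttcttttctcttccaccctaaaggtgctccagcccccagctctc

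The 2 runs of Acta2, CCCTATATGG and CCTTGTTTGG, begin 134 and 84 bases before the start. Those of Srf, CCATATAAGG and CCATAAAAGG, begin 81 and 61 bases before it. An exact CArG box was found in 1.5% of the 33469 RefSeq windows of this length and an element with 1 altered core base in 6.84%. Both patterns read as such on either strand, and by their definition no run counts as both. The window of Cnn2 held 1 exact box, and none was found for Cnn1, Tpm1, Tpm2 or either start of Cald1. The E-box CACGTG, which MYC binds with MAX and which reads the same on both strands, was found in 5.59% of all windows and in 0 of the 8 symbols' windows. These matches are letters in a window and not measured binding.

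The deposited values are on a log2 scale and are labelled as log CPM, which they are not: the totals of the unlogged values are from 86.3 to 161 times what CPM would give. How the values were transformed is not known, read counts cannot be recovered from them, and the depth of each library is unknown. Whether they were divided by gene length was not tested, so levels are not compared between genes. The libraries form 2 sets on different scales, a set of 12 (myc-/-, and myc-/- + MYC with siCtrl, siAHR-2 or siAHR-5) and a set of 6 that holds the remaining groups, and differences (log2FC) were taken only within a set. In each set the transfection label changes together with MYC, so an effect of MYC and one of the control siRNA cannot be told apart. The groups are named as the labels give them. Whether the transfection labels of the myc-/- and myc-/- siCtrl groups might be exchanged could not be settled from the sources. If they were, both groups of each MYC contrast would share their transfection state. The knockdown was seen in the values: Ahr differed from siCtrl by −1.29 with siAHR-2 and by −1.39 with siAHR-5. Rat Myc gave signal in all 18 libraries and was lower with MYC in both sets (log2FC −1.26 and −2.68). The human transgene was not analysed here. Of 10 fibroblast markers all were in the table, with mean log2 values of Vim between 18.3 and 19.6 in the 6 groups and those of Col1a2 only between 3.64 and 4.08.

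The first question was how the contractile genes differ between cells with and without MYC. The smooth muscle actin Acta2 was far lower in cells with MYC in the set of 12. Its log2 values were 16.53, 16.65 and 16.54 in the 3 myc-/- libraries, and 11.27, 11.37 and 11.26 in the myc-/- + MYC siCtrl libraries. The groups were separated by several log2 units, and the difference was −5.27 ± 0.0487 (SE), a fold of 38.5 on the deposited scale and the 10th lowest log2FC of all genes. In bulk RNA, fewer cells with a contractile program and less RNA per cell cannot be told apart. Values of the set of 6 were 12.24, 12.24 and 12.13 in myc-/- siCtrl cells and 10.18, 10.86 and 11.11 in myc-/- + MYC cells. The groups again did not overlap, the 3 MYC libraries lay far apart from each other, and Acta2 fell by 1.49 ± 0.177 on the log2 scale (adjusted p = 1.28e-05, limma with Benjamini-Hochberg adjustment over all genes).

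Actg2, the actin of enteric smooth muscle, had a like pattern. It stood at 11.92, 12.14 and 11.96 in myc-/- cells and at 7.15, 7.14 and 7.18 in myc-/- + MYC siCtrl cells of the set of 12, a difference of −4.85 ± 0.0699 or a fold of 28.9. Within the set of 6 it stood at 8.07, 8.10 and 8.06 without MYC and at 6.31, 6.47 and 6.51 with MYC. The MYC libraries were the lower ones in both sets without overlap, and in the set of 6 Actg2 fell by 1.65 ± 0.0646 (adjusted p = 9.38e-10).

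Tagln (transgelin, an actin-binding protein used as an early marker of smooth muscle) had the lowest log2FC on the list in both sets. Its values in the set of 12 were 16.95, 17.17 and 16.96 in myc-/- cells and 11.06, 11.15 and 11.08 with MYC and siCtrl. This difference of −5.93 ± 0.0666 is a fold of 60.9 and was the 3rd lowest of all genes. Its values in the set of 6 were 13.34, 13.34 and 13.37 without MYC and 10.11, 10.34 and 10.64 with MYC, and it fell by 2.98 ± 0.100 (adjusted p = 2.70e-10), a fold of 7.92. Cnn1, a calponin that binds actin and slows the myosin ATPase, stood at 10.02, 10.02 and 9.97 in myc-/- cells and at 7.27, 7.04 and 6.85 in myc-/- + MYC siCtrl cells. Its log2FC in the set of 12 was −2.95 ± 0.109. With values of 6.67, 6.64 and 6.58 against 6.07, 6.10 and 6.18 in the set of 6, the log2FC of Cnn1 was −0.51 ± 0.0542 (adjusted p = 4.62e-06), short of the fold of 1.5 that a gene had to reach to pass beside an adjusted p of at most 0.01.

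Myl9, the regulatory light chain of myosin whose phosphorylation starts contraction, stood at 14.44, 14.57 and 14.43 in myc-/- cells and at 11.62, 11.57 and 11.47 with MYC and siCtrl (log2FC −2.93 ± 0.0573). Libraries of the set of 6 were at 11.80, 11.91 and 11.93 without MYC and at 11.22, 11.41 and 11.59 with MYC. These groups did not overlap either, but the log2FC of −0.48 ± 0.0786 (adjusted p = 0.00019) did not reach the fold cutoff. Cald1 (caldesmon, which holds actin and myosin apart until calcium rises) stood at 16.94, 16.64 and 16.92 in myc-/- cells and at 14.49, 14.50 and 14.49 with MYC and siCtrl, a difference of −2.34 ± 0.0818. Its values in the set of 6 were 14.07, 14.06 and 14.07 against 12.81, 12.87 and 12.99, and Cald1 fell by 1.18 ± 0.0416 (adjusted p = 4.13e-10).

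The tropomyosins of the list differed from each other. Tpm2 (β-tropomyosin) was at 17.15, 17.44 and 17.19 in myc-/- cells and at 15.16, 15.26 and 15.31 with MYC and siCtrl, a log2FC of −2.02 ± 0.0860. Cells of the set of 6 had values of 15.98, 16.01 and 16.00 without MYC and of 15.39, 15.39 and 15.38 with MYC. Tpm2 fell by 0.61 ± 0.0254 (adjusted p = 1.53e-09), just past the fold cutoff, and it lost the call under quantile normalization, where the log2FC was −0.49. Tpm1 (α-tropomyosin) was at 16.84, 16.91 and 16.83 against 15.99, 15.99 and 16.01 in the set of 12, a log2FC of −0.86 ± 0.0335. In the set of 6 it was the MYC libraries that were higher, at 14.51, 14.75 and 14.97 against 14.43, 14.40 and 14.37, with a log2FC of 0.34 ± 0.0851 (adjusted p = 0.0033) that did not reach the fold cutoff.

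Srf, the transcription factor, had the log2FC of smallest size on the list in both sets. Its values were 14.44, 14.37 and 14.29 in myc-/- cells against 14.07, 14.14 and 14.01 with MYC and siCtrl (log2FC −0.29 ± 0.0515), and 12.73, 12.70 and 12.80 against 12.83, 12.92 and 12.96 in the set of 6 (0.16 ± 0.0424, adjusted p = 0.00501). The groups did not overlap in either set, but MYC libraries were the lower ones in one set and the higher ones in the other, and Srf passed in neither.

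**Figure D1:**
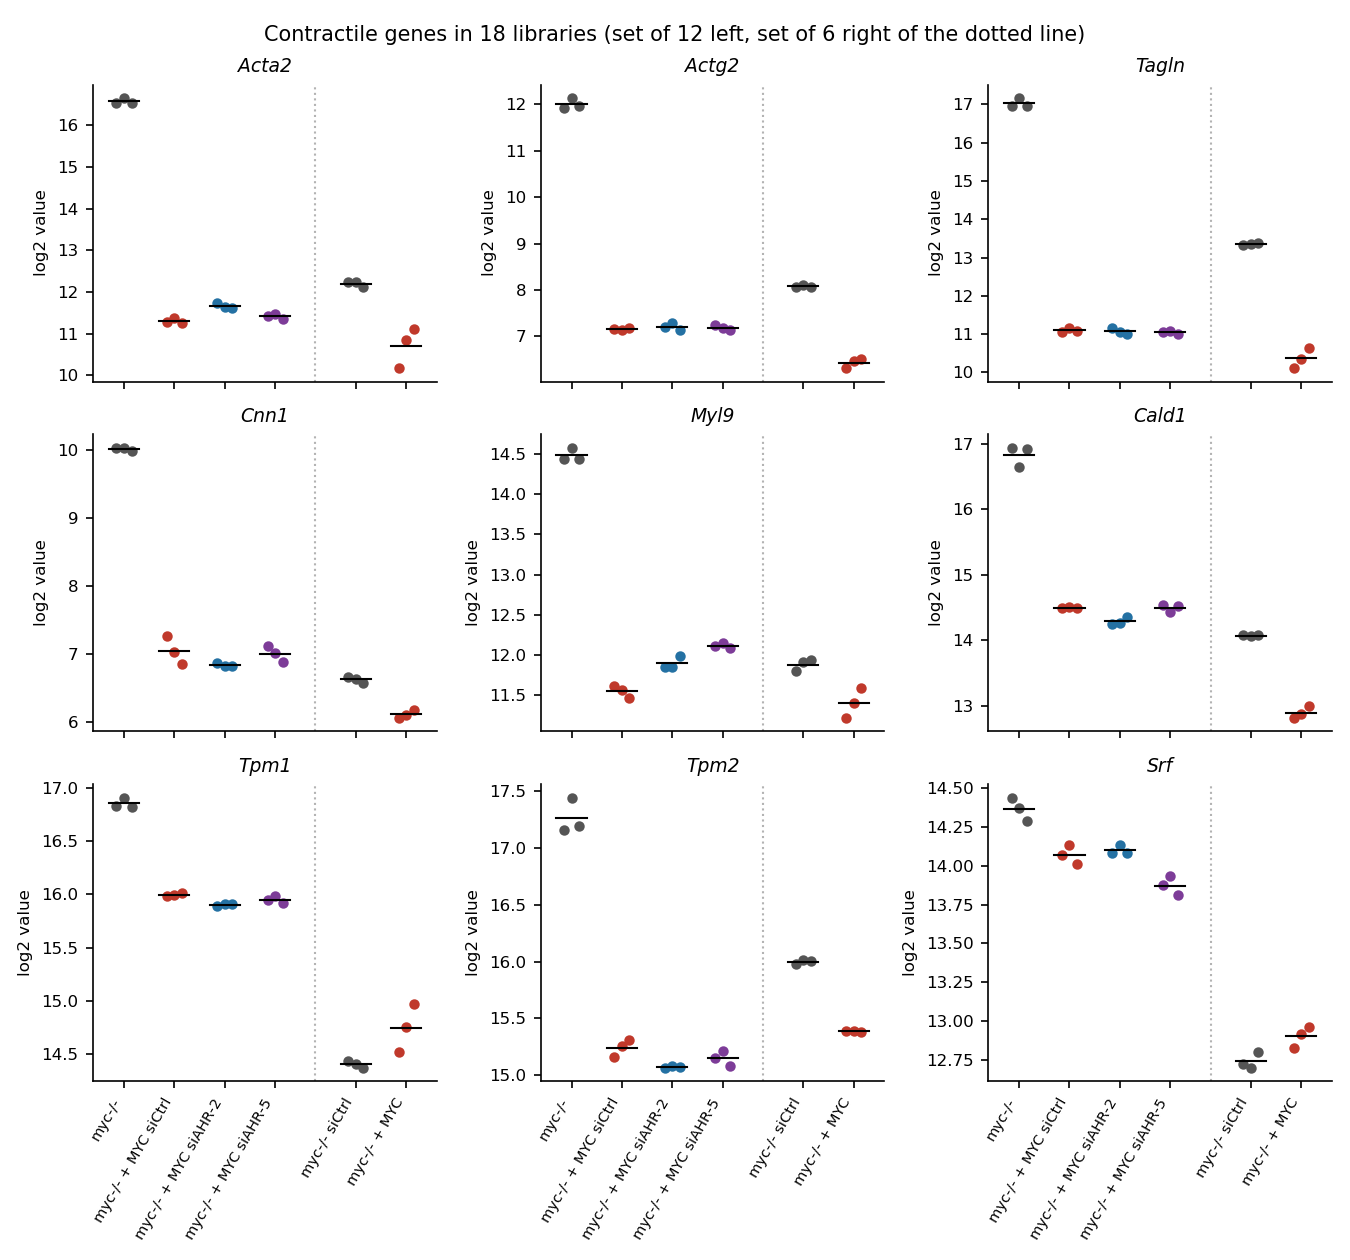
Deposited log2 values (vertical axes, a scale of its own for each gene) of the 9 contractile genes, with 1 point for each library and a bar at the mean of each group of 3, the set of 12 left and the set of 6 right of the dotted line. The myc-/- libraries are above every other library of the set of 12 for all 9 genes, and in the set of 6 the myc-/- + MYC libraries are lower for all genes but Tpm1 and Srf.

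In the set of 6, 5 of the 9 genes passed, all lower with MYC (Tagln, Actg2, Acta2, Cald1 and Tpm2), where 26.8% of all genes tested passed and 14.3% passed as lower. The median log2FC of all 9 genes was −0.61, against −0.0038 over all genes. Groups did not overlap for 7 genes that were lower and 2 that were higher with MYC, but 78.8% of all genes were without overlap (40.9% lower and 37.9% higher). In the set of 12, 8 of the 9 genes were past the cutoffs and lower, all but Srf. There 25.5% of all genes passed, and 14.7% passed as lower. The median log2FC of the list was −2.93, against −0.00014 over all genes, and all 9 genes were lower without overlap, as were 36.7% of all genes. As these values had a part in the choice of the list, nothing is read from the counts of the set of 12.

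The log2FC of the set of 12 was below that of the set of 6 for all 9 genes. The share of all genes for which this was so was not counted, and their median difference was −0.015. Nothing is read from the count of 9. The difference was −3.78 for Acta2, −3.20 for Actg2, −2.94 for Tagln, −2.46 for Myl9 and −2.44 for Cnn1. It was −1.41 for Tpm2, −1.20 for Tpm1, −1.16 for Cald1 and −0.45 for Srf. In the fit of the difference itself 16.5% of all genes passed and 9.67% as lower ones, which are shares past both cutoffs and not shares of negative differences. The values of the set of 12, from which it is formed, had a part in the choice of the list, so the differences are descriptions without a test. The sets differ in which of the groups was transfected, and the part of this in the differences was not tested.

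**Figure D2:**
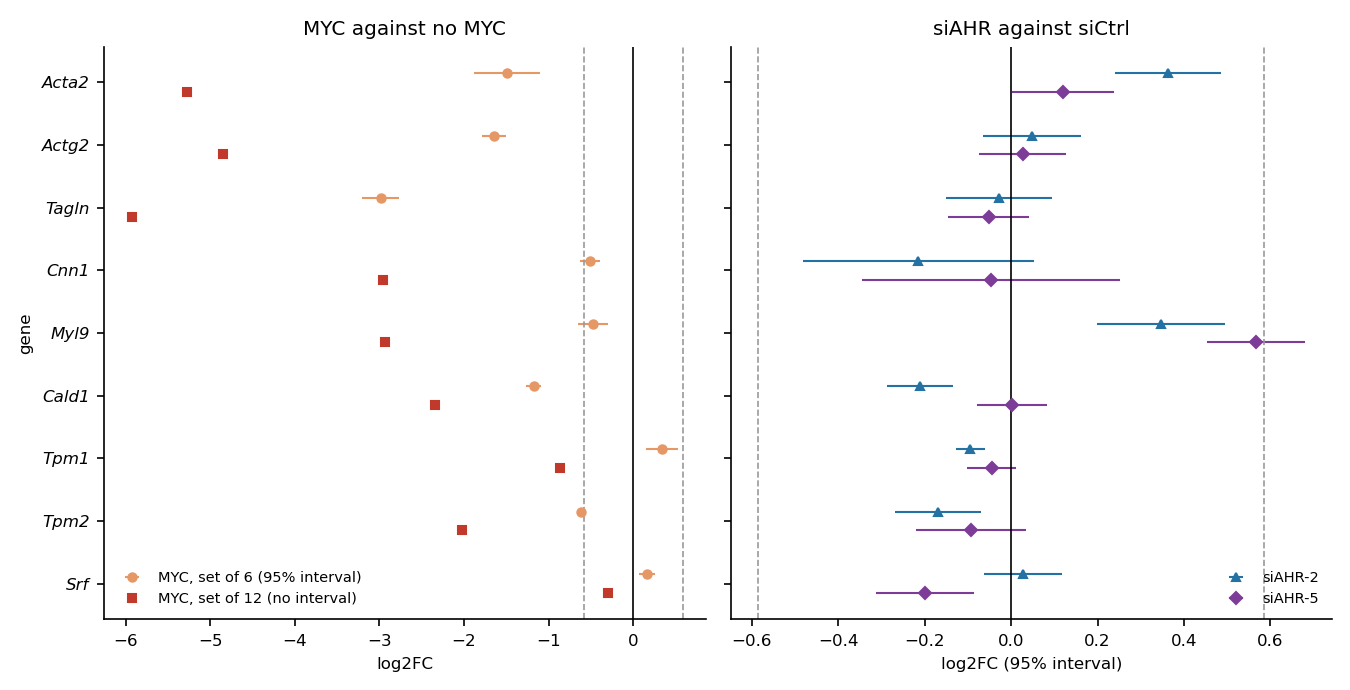
log2FC of the 9 contractile genes (rows), on the left for cells with MYC against cells without it in both sets and on the right for siAHR-2 and siAHR-5 against siCtrl. The right axis is magnified and spans a narrower range of log2FC than the left one. Lines are 95% intervals from limma, drawn for all but the set of 12. Dashed lines mark the fold cutoff of 1.5. The MYC values reach −5.93 for Tagln in the set of 12, while the siAHR values lie between −0.21 and 0.57 and none is past the dashed lines.

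The second question was whether lowering AHR in cells with MYC moves these genes. With siAHR-2, 0 of the 9 genes passed in limma, where 0.47% of all genes passed. Of the 9 genes, 5 had an unadjusted p under 0.05, as had 5326 of all 13188 genes. No other tool was run. Acta2 stood at 11.74, 11.64 and 11.61, above all 3 siCtrl libraries, with a log2FC of 0.36 ± 0.0489 (adjusted p = 0.00497). Myl9 stood at 11.847, 11.850 and 11.995, also above siCtrl, with a log2FC of 0.35 ± 0.0592 (adjusted p = 0.0104). Cald1 was at 14.24, 14.26 and 14.35 and had a log2FC of −0.21 ± 0.0304 (adjusted p = 0.0061). Tpm1 (−0.09) and Tpm2 (−0.17) were also below siCtrl without overlap. These 5 genes without overlap with siCtrl compare with 43.3% of all genes. The log2FC of Tagln was −0.03 with a 95% interval of −0.15 to 0.09, that of Actg2 was 0.05 (−0.07 to 0.16), that of Srf 0.03 (−0.06 to 0.12), and that of Cnn1 −0.21 (−0.48 to 0.05). The value of Cnn1 was −0.11 without siCtrl replicate 1 and −0.31 without siCtrl replicate 3. These groups overlapped, and the signs of Actg2 and Srf turned under quantile normalization and median centring respectively.

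With siAHR-5, 0 of the 9 genes passed, where 2.33% of all genes passed in limma. Of the 9 genes, 3 had an unadjusted p under 0.05, as had 6300 of all 13188 genes. Myl9 was closest to the cutoff, at 12.12, 12.15 and 12.09, above siCtrl and above siAHR-2, with a log2FC of 0.57 ± 0.0454 (adjusted p = 0.000695). When siCtrl replicate 1 was left out its log2FC was 0.60 and it passed. Srf was at 13.88, 13.93 and 13.81, below all other groups of the set, with a log2FC of −0.20 ± 0.0454 (adjusted p = 0.0191). Acta2 was at 11.43, 11.48 and 11.36, which overlaps siCtrl, with a log2FC of 0.12 (95% interval 0.0033 to 0.24, adjusted p = 0.0976). Of the 9 genes, Myl9, Srf and Tpm1 did not overlap siCtrl, as was so for 50.5% of all genes. For the 6 genes other than Myl9, Srf and Acta2 the log2FC lay between −0.09 (Tpm2) and 0.03 (Actg2), with interval bounds no farther from 0 than −0.34 and 0.25, both those of Cnn1. The signs of Tpm1, Actg2 and Cald1 turned under another scaling.

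The 2 siRNAs share the siCtrl libraries, so they were also set against each other directly. In this comparison 0 of the 9 genes passed in limma, where 2.18% of all genes passed. An unadjusted p under 0.05 was found for 5 of the 9 genes and for 6176 of all 13188 genes. Acta2 was lower with siAHR-5 than with siAHR-2 by a log2FC of −0.24 (adjusted p = 0.012) and Srf by −0.23 (adjusted p = 0.00465). Myl9 was higher by 0.22 (adjusted p = 0.0158) and Cald1 by 0.21 (adjusted p = 0.0115). All were short of the fold cutoff. Groups did not overlap for 6 of the 9 genes and for 49.5% of all genes. In the order of the 4 groups of the set of 12, myc-/- was highest for all 9 genes. The 3 groups with MYC were separated from each other for Myl9 (siAHR-5, then siAHR-2, then siCtrl) and Tpm1 (siCtrl, then siAHR-5, then siAHR-2), where the lowest siCtrl and the highest siAHR-5 library were both at 15.9878 when rounded. They overlapped for Tagln and Actg2 throughout.

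For context, 66 other genes of SRF control and of the actomyosin machinery were taken from their roles, with earlier results of these data known. With MYC, 28 of them passed in the set of 6 (42.4%, 7 higher and 21 lower) and 35 in the set of 12 (53.0%, 5 higher and 30 lower). Of all genes 26.8% and 25.5% passed, 14.3% and 14.7% as lower, and the counts of the gene families stand beside the same shares. Their medians were −0.27 and −0.57. In what follows a pair of values gives the log2FC of the set of 6 first and that of the set of 12 after it. None of them passed with siAHR-2 in limma (0 of 66). Among the 66, 29 had an unadjusted p under 0.05, as had 5326 of all 13188 genes. With siAHR-5, 2 of the 66 passed (3.03%, beside the 2.33% of all genes), 1 higher and 1 lower. The lower one was Myl12a, a light chain of nonmuscle myosin, with a log2FC of −0.85. The higher one lost the call under median centring and without siAHR-5 replicate 2.

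Among the other actins 0 of 4 passed in the set of 6 in limma. An unadjusted p under 0.05 was found for 2 of them and for 10221 of all 13188 genes in that set. Acta1, the skeletal muscle actin, had a log2FC of −0.20 there and fell by 2.23 ± 0.0697 in the set of 12 (adjusted p = 2.27e-06). The cytoplasmic actins did not pass in either set, with −0.25 and −0.33 for Actb and −0.07 and −0.43 for Actg1, nor did the cardiac actin Actc1 (−0.00042 and 0.012). Of the other tropomyosins, Tpm4 fell in both sets (−0.66 and −1.13, with the call in the set of 6 lost under quantile normalization at −0.52) and Tpm3 did not pass (−0.38 and −0.30). Tagln2, the transgelin of nonmuscle cells, fell in both (−0.87 and −0.89). Cnn3 did not pass in either set (0.03 and −0.49).

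**Figure D3:**
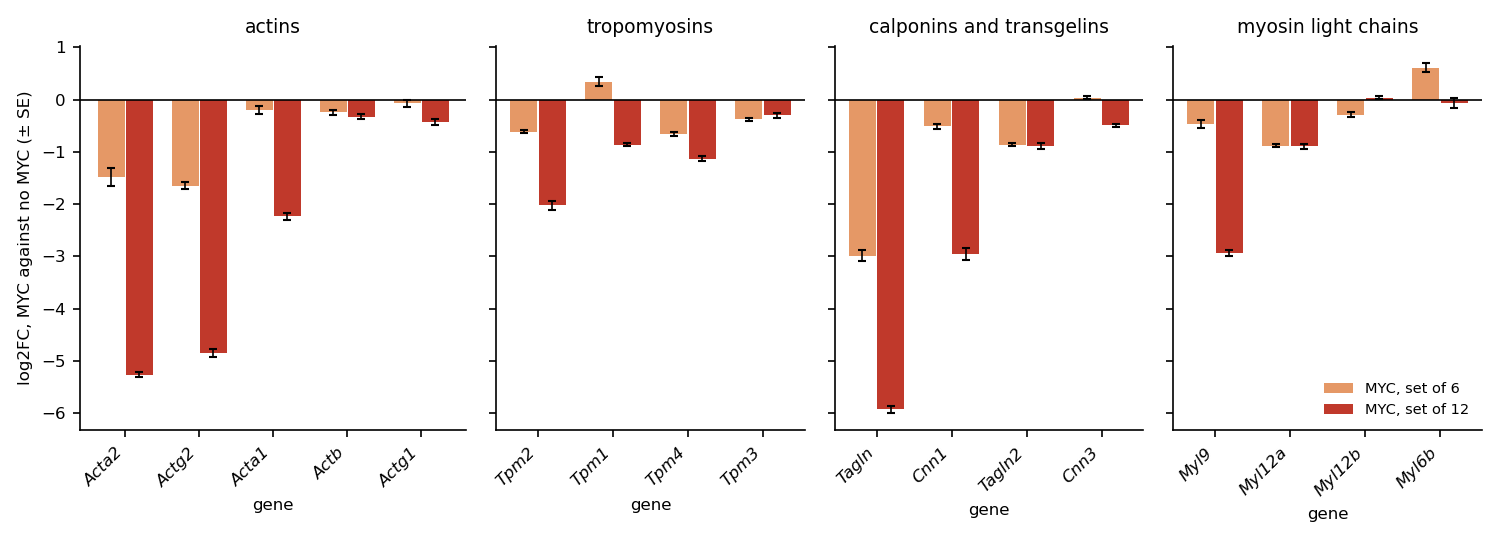
log2FC with MYC (bars, ± SE, both sets) of contractile genes and of other genes of the same families. In the set of 12 Acta2 and Actg2 are at −5.27 and −4.85 where Actb is at −0.33, Tagln is at −5.93 where Tagln2 is at −0.89, and Myl9 is at −2.93 where Myl12b is at 0.04 and Myl12a at −0.89. Acta1 is at −2.23 there, and in the set of 6 Myl12a (−0.88) is lower than Myl9 (−0.48).

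Of 7 genes for other myosin chains, 5 passed in the set of 6, against 4 in the set of 12. Myl12a (−0.88 and −0.89) and Myh11, the myosin heavy chain of smooth muscle (−1.76 and −1.49), fell in both, and Myh14 rose in both (0.85 and 0.95). Myh9 fell by 0.77 in the set of 6 and did not pass in the set of 12 (−0.86, adjusted p = 0.0148 in limma), where it passed without myc-/- replicate 2 (−1.12) and under both other scalings. Myl6b rose in the set of 6 (0.61 and −0.06) but lost the call without myc-/- siCtrl replicate 3 (0.52), without myc-/- + MYC replicate 2 (0.583) and under median centring (0.57), and Myh10 fell in the set of 12 (0.03 and −0.89).

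Of 16 genes that set the phosphorylation of myosin or signal to it, 2 passed in the set of 6 (12.5%, below the share of all genes, 1 higher and 1 lower) and 6 in the set of 12 (37.5%, 2 higher and 4 lower). Mylk, the kinase that activates Myl9, fell by 2.86 ± 0.0482 (adjusted p = 1.41e-12) in the set of 6 and by 3.26 ± 0.0732 (adjusted p = 7.29e-07) in the set of 12. Ppp1r12b, a subunit of the opposing phosphatase, rose by 0.68 and 0.83, and lost the call in the set of 12 when any 1 of the siCtrl libraries was left out (0.82 to 0.84). The exchange factor Arhgef2 (−0.39 and −0.98) and the kinase Dapk3 (0.10 and −0.91) fell in the set of 12, and Prkg1, a kinase that relaxes smooth muscle, rose there (0.35 and 0.80). All were short of the cutoff in the set of 6.

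Of 17 genes that crosslink actin or tie it to the membrane at focal adhesions, 10 passed in the set of 6 (8 lower) and 11 in the set of 12, all lower. Those that fell in both were Vcl (vinculin, −0.63 and −1.56), Zyx (zyxin, −1.04 and −1.30), Flna (filamin A, −0.84 and −1.37), Flnc (filamin C, −0.76 and −1.22), Cfl1 (cofilin, which severs actin filaments, −0.87 and −1.01) and Tmsb4x, which holds free actin (−0.82 and −1.30). In the set of 6 Vcl lost the call under quantile normalization (−0.50), without myc-/- siCtrl replicate 1 (−0.61) and without myc-/- + MYC replicate 1 (−0.44). Lpp (−0.82 and −0.71) and Vil1 (villin, −1.56 and −0.32) fell in the set of 6 and did not pass in the set of 12. Without myc-/- replicate 2, Lpp was at −1.16 in the set of 12 and passed. The genes that fell in the set of 12 and did not pass in the set of 6 were the α-actinins Actn1 (−0.20 and −1.004) and Actn4 (−0.31 and −0.80), Tln1 (talin, −0.49 and −0.79), Pdlim7 (0.19 and −0.70, lost under quantile normalization at −0.54) and Ldb3 (−0.23 and −1.50). Nexn (nexilin) rose by 0.92 in the set of 6 and was at −0.58 in the set of 12, just short of the cutoff, which it passed without myc-/- + MYC siCtrl replicate 2 (−0.585). Pdlim5 rose by 0.62 in the set of 6 (0.58 and no call under median centring) and was at −0.02 in the set of 12, where Pxn (paxillin) had the highest value, 0.0017.

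Among 10 cofactors and regulators of SRF, 5 passed in the set of 6, as did 6 in the set of 12. Tgfb1i1 (HIC-5, a focal adhesion protein that also acts as a coactivator) fell in both sets (−1.54 and −3.27), as did the LIM protein Fhl2 (−1.13 and −1.13) and Klf4, a factor known to repress smooth muscle genes (−1.64 and −1.51). Csrp2, a LIM protein of smooth muscle, rose in both (1.85 and 1.01). Nkx2-5 passed in the set of 6, where it fell (−2.05 and −0.49). Its libraries with MYC stood at nearly 1 value, with means of 5.68 (SD 0.0029) in the set of 6 and, with siCtrl, 5.39 (SD 0.0019) in the set of 12. That may limit both log2FC, and its part was not tested. Csrp1 (−1.15) and Elk3 (−0.72) fell in the set of 12. Myocd (myocardin, the muscle cofactor of SRF) had means between 2.66 and 2.70 in the 4 groups of the set of 12 and of 1.47 and 1.45 in the set of 6, and did not pass in either.

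The late markers of smooth muscle were mixed. Of 11, 5 passed in the set of 6 (4 lower) and 6 in the set of 12 (5 lower). Myh11 (−1.76 and −1.49, also given above), Smtn (smoothelin, −1.02 and −1.92) and Des (desmin, −1.29 and −1.14) fell in both, and Itga8 (−0.27 and −1.55) fell in the set of 12. Lmod1 (0.36 and −0.93) also fell in the set of 12, and Pln (phospholamban, −1.04 and 0.54) in the set of 6, each with the other sign and short of the cutoff in the other set, where Pln passed as higher under quantile normalization (0.73). Synpo2, an actin-bundling protein, rose in both (2.01 and 2.00).

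**Figure D4:**
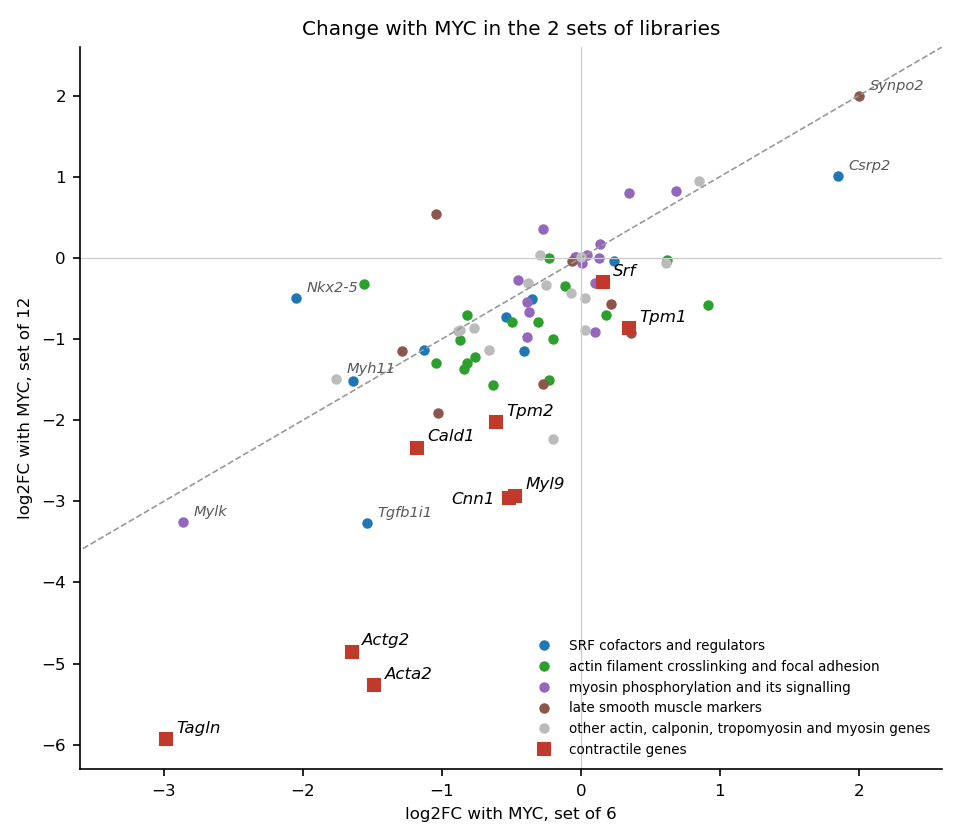
log2FC with MYC of the 9 contractile genes (red squares) and the 66 other genes (points, coloured by role) in the set of 6 (horizontal axis) against that of the set of 12 (vertical axis), with the line of equal change dashed. All 9 contractile genes lie below the line (a vertical distance of −3.78 for Acta2 and −0.45 for Srf), while Synpo2 lies on it (2.01 and 2.00). Of the 66 other genes, 45 have a negative difference.

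Markers of other cell types were counted in the same way. Of 12 markers of skeletal and cardiac muscle 7 were in the table, of which 4 passed in the set of 6 (3 lower), against 5 in the set of 12 (4 lower). Myh3, the embryonic myosin heavy chain, fell in both (−2.83 and −4.10), as did Ckm (−1.78 and −1.12) and Tnnt2 (−0.63 and −1.14), and Tnnt3 fell in the set of 12 (−0.57 and −1.36). Tnnt3 stood at nearly 1 value (mean 5.83, SD 0.0037) in the myc-/- + MYC siCtrl libraries, which may limit its log2FC there. Without myc-/- siCtrl replicate 1 Tnnt2 lost its call in the set of 6 (−0.55), and without replicate 2 or 3 of that group Tnnt3 passed there (−0.60 and −0.59). Myh6, a cardiac myosin heavy chain, rose in both (1.88 and 2.89). The log2 of their summed levels was 11.75 to 11.87 in myc-/- and 11.02 to 11.10 in myc-/- + MYC siCtrl libraries, and 11.42 to 11.49 against 9.71 to 9.74 in the set of 6. Of these 7 genes 1 had a mean under 3 in each group, a bound that need not mark every low gene on this scale. The sums mostly reflect the genes of highest value. In the set of 12 these were Myh3 in myc-/- cells (mean 11.39) and Myh6 in myc-/- + MYC siCtrl cells (10.66). Of the 10 fibroblast markers 5 passed in the set of 6 (4 lower and 1 higher), against 6 in the set of 12, all lower. The log2 of their summed levels was 20.12 to 20.13 without and 19.54 to 19.66 with MYC in the set of 6, and 21.52 to 21.58 in myc-/- and 19.64 to 19.70 in myc-/- + MYC siCtrl libraries of the set of 12. Col1a1 (−1.73 and −5.95), Pdgfrb (−1.72 and −3.08), Thy1 (−1.15 and −2.20) and Lum (−1.16 and −0.95) fell in both, Pdgfra (0.25 and −0.61) and Dcn (−0.33 and −0.90) fell in the set of 12, and Col3a1 rose in the set of 6 (1.30 and −0.08). Pdgfra lost its call (−0.57 to −0.58) without myc-/- replicate 1 or 3 or myc-/- + MYC siCtrl replicate 3. With siAHR-5, 1 fibroblast marker passed, Thy1, which was higher by 0.75. Of 5 epithelial, 5 endothelial and 4 immune markers in the table, 2, 2 and 1 passed in the set of 6, and 1 of each passed in the set of 12, beside 26.8% and 25.5% of all genes. Krt8 rose in both (1.70 and 1.17), Vwf (−1.89 and −3.06) and Cd3e (−2.09 and −1.13) fell in both, and in the set of 6 Tek rose (1.61 and 0.38) and Cldn4 fell (−0.84 and 0.01). Cdh1 had the lowest epithelial value in the set of 12 (−0.04), and Cd68 the highest immune value in both sets (0.35 and 0.27). The part of these genes in the differences of the contractile genes was not tested.

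The genes outside the list whose 4 log2FC (MYC in both sets, siAHR-2 and siAHR-5) were nearest to those of Acta2, by Euclidean distance among 10707 genes with a mean value of at least 5, were Fmod (distance 0.617), Col14a1 (0.731) and Col1a1 (0.879). Those nearest to Tagln were Slpi (0.633), Bgn (0.754) and Thbs2 (0.798). Of these 6, Fmod, Col14a1, Col1a1, Bgn and Thbs2 encode proteins of the extracellular matrix. The share of such genes among the 10707 was not counted and enrichment was not tested, so no theme is read from these names. The distance also uses MYC values that had a part in the choice of the list. The MYC values of Fmod were −1.77 and −4.83, and those of Bgn were −3.03 and −5.29.

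The contractile genes also differed among libraries of 1 group. In the myc-/- + MYC cells of the set of 6 the SD of Acta2 was 0.483, the 4th largest of all 13188 genes in that group. The distance of 0.93 between its replicates 1 and 3 was the largest of all genes. The SD was 0.266 for Tagln, 0.227 for Tpm1 and 0.186 for Myl9, and only 0.0038 for Tpm2. Replicate 1 was the lowest and replicate 3 the highest library for 8 of the 9 genes, all but Tpm2. Of all genes 26.7% had that order in this group, and of the 66 other genes 24 had it (36.4%). In the other 5 groups 0 to 3 of the 9 genes had it. Chosen after their values were seen, Vcl (0.68), Actg1 (0.33), Flna (0.31) and Actn1 (0.25) were likewise higher in replicate 3 than in replicate 1, and Mylk (−0.15), Smtn (−0.12) and Des (−0.22) were lower in it. Leaving out a library in turn, the log2FC of Acta2 in the set of 6 ranged from −1.68 to −1.22 and that of Tpm1 from 0.23 to 0.46.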

How the data were processed

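RNA-seq of 18 libraries of Rat1 fibroblasts in 6 groups of 3 was used, with groups and replicate numbers from the sample labels. The authors aligned quality-checked reads (NGS-QC-Toolkit) with HISAT2 2.1.0 to rn6, dropped genes under 10 reads in total and used DESeq2 for normalization. The counter and annotation are not given in the sources used here. The authors deposited log2 values for 13188 genes, unpooled. Some low genes, picked after their values were seen, had nearly the same mean with siCtrl, siAHR-2 and siAHR-5 in the MYC cells of the set of 12. These means were 5.390, 5.390 and 5.391 for Nkx2-5. All were 5.832 for Tnnt3, 5.263 for Kdr and 3.643 for Col1a2. How many other genes had such values was not counted. Whether the authors' transformation shrinks changes of low genes was not tested. Value columns without a sample numbered 0.

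Values were tested as deposited with limma 3.58.1 in R 4.3.3 (eBayes with a mean-variance trend, only the groups compared, Benjamini-Hochberg over all genes). A gene passed at a log2FC of at least 0.585 in size and an adjusted p of at most 0.01. The fits were tested on simulated data. Members and lists were chosen with earlier results of these data known. The rule was to name all listed contractile genes and, of the other lists, those that passed with MYC or siAHR or gave the range. Alternatives were the cutoff, trend, scaling, low-value filter, pseudocount, replicate block, libraries left out, all groups of a set in one fit, and comparisons across the sets. Promoters came from RefSeq (GRCr8). As exceptions, 2 listed genes of signalling to myosin that passed are not reported here. Figures used matplotlib 3.10.9.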

Additional observations from a re-analysis of the deposited data

Results flagged for a closer look

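The log2FC with MYC of the contractile genes were not alike in the 2 sets of libraries, and the difference (set of 12 minus set of 6) was taken in a fit of its own. It was −3.78 for Acta2, −3.20 for Actg2, −2.94 for Tagln, −2.46 for Myl9, −2.44 for Cnn1, −1.41 for Tpm2, −1.20 for Tpm1, −1.16 for Cald1 and −0.45 for Srf. Tpm1 and Srf had values of opposite sign in the 2 sets, higher in all 3 MYC libraries of the set of 6 and lower in all 3 of the set of 12. The values of the set of 12 had a part in the choice of the list, so these are descriptions and no test of them is given. Srf passed in neither set and Tpm1 did not pass in the set of 6. The sets also differ in which group was transfected, and the part of this was not tested. They differ in scale too. With the 12 libraries quantile normalized together the difference was −3.55 for Acta2 and −0.43 for Srf, and with median centring −3.70 and −0.37, and all 9 genes kept their sign under both. With each of the 12 libraries left out in turn it lay between −4.05 and −3.58 for Acta2 and between −0.49 and −0.42 for Srf. No outlier test was made within groups of 3 libraries.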

How the results depend on the processing

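With an FDR under 5% and no fold cutoff, the contractile genes that passed numbered 9 in the set of 6, 5 with siAHR-2, 2 with siAHR-5 and 4 for siAHR-5 against siAHR-2, and the other genes 56, 23 and 28 in the set of 6, siAHR-2 and siAHR-5. The shares of all genes were 76.2%, 29.3%, 39.2% and 39.1% in the same order. When MYC was compared across the sets as the transfection labels pair the groups, 9 contractile and 58 other genes passed in untransfected cells, as did 66.5% of all genes. There Tpm1 was at −2.12 and Srf at −1.46. In siCtrl-transfected cells Cnn1 was at 0.42, Tpm1 at 1.60, Cald1 at 0.43 and Srf at 1.33. These comparisons mix the 2 scales: the median of all genes shifted by −0.64 and 0.63. With siAHR-2, quantile normalization put Actg2 at −0.0047 and median centring put Srf at −0.0033. With siAHR-5, quantile normalization put Tpm1 at 0.049 and Actg2 at −0.12, and median centring put Actg2 at −0.033 and Cald1 at −0.057 and left 1 of the other genes past the cutoffs.

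Leaving out a library in turn, 5 to 5 contractile genes passed in the set of 6, 0 to 0 with siAHR-2, 0 to 1 with siAHR-5 (Myl9, without siCtrl replicate 1) and 0 to 0 for siAHR-5 against siAHR-2. The other genes numbered 27 to 28 in the set of 6, 34 to 38 in the set of 12, 0 to 0 with siAHR-2 and 1 to 2 with siAHR-5 (1 without siAHR-5 replicate 2). Values near 0 changed sign: Tagln (−0.071 to 0.0034) and Srf (−0.0031 to 0.060) with siAHR-2, Cnn1 (−0.15 to 0.061), Actg2 (−0.00080 to 0.054) and Cald1 (−0.019 to 0.036) with siAHR-5, and Tagln (−0.055 to 0.019) and Actg2 (−0.054 to 0.016) between the siRNAs. The causes were not tested. With the replicate number as a block, 5, 0 and 0 contractile genes passed in the set of 6, siAHR-2 and siAHR-5. Over all genes the block moved the siAHR-2 count from 62 to 0 (smallest adjusted p 0.0126, 5030 genes with an unadjusted p under 0.05). The mean correlation of same-numbered libraries lay between −0.029 and 0.097 in the 5 comparisons. Single correlations ranged from −0.256 (replicate 3) to 0.242 (replicate 1), both for MYC in the set of 12. With 3 libraries in a group, these values cannot settle whether the numbers pair libraries. Other alternatives changed no count of contractile genes by over 1.5 times. Depth is unknown, so what it limits cannot be given.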

Other observations

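The genes of matricellular and secreted proteins Cyr61, Ctgf and Thbs1, chosen after their values were seen, differed in the same way as Acta2 among the myc-/- + MYC libraries of the set of 6. Cyr61 was at 13.70, 13.80 and 14.29, Ctgf at 12.46, 12.79 and 12.95, and Thbs1 at 12.89, 13.10 and 13.46. Their SDs were the 19th, 48th and 30th largest of all genes in that group.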
